A study of Mus musculus with 14 samples.

Results

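The genes described here are the chromatin regulators and MLL fusion partner genes of the comparison between Kmt2a knockout and wild-type mouse lung. They are the protein-coding rows of the authors' deposited table for that comparison whose symbol begins with one of 22 family names, among them Kmt, Kdm, Hdac, Setd, Smarc, Chd, Arid, Tet, Prmt, Sirt, Mllt, Aff and Cbx. The rule found 29 genes among the 3956 rows, 3321 of them protein-coding. It was applied to symbols alone, so it also takes in Arid3b, Arid5a, Sirt4 and Prmt8, whose main roles lie partly or wholly outside chromatin.

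The study sequenced 14 RNA libraries of mouse lung, and this comparison uses 3 of them labelled as knockout of Kmt2a and 3 labelled as its wild type. The remaining libraries are a Men1 knockout cohort, with 4 per genotype. The labels give no strain, age, sex or promoter of a Cre, and do not say whether the deletion was confined to a cell type. They name lung as the tissue while the extraction text names macrophages of the peritoneal cavity. Alveolar epithelial markers were abundant: the 10 of 12 listed genes with a row had deposited means summing to 120552 normalized counts for wild-type lung and 397159 for the knockout. A row marks a gene that changed, not one that is expressed, so the number of marker rows does not show which tissue was sequenced. Kmt2a itself had no row in the table, so the label of the knockout was not checked on its own gene.

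Kmt2a encodes MLL, a methyltransferase of lysine 4 of histone H3 that works in a complex with menin, and binds unmethylated CG-rich DNA through its CXXC domain. In leukemia, translocations fuse the amino-terminal part of MLL to a partner, and several partners are parts of complexes that help RNA polymerase II to elongate. The other families write, read or remove marks on histones and DNA, or move nucleosomes with the energy of ATP.

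The table holds group means of normalized counts (reads divided by a size factor per library). The whole reads of the 3 libraries behind each mean were recovered from its digits, for all 29 genes in both groups. The libraries are called a, b and c in order of falling size factor and cannot be tied to single animals. Size factors were 1.18, 1.14 and 1.07 for knockout libraries and 0.960, 0.907 and 0.817 for wild-type libraries. They do not give total depth, which is not known here. Scgb1a1 alone had deposited means of 612534 for the knockout and 1958770 for the wild type. All values below are normalized counts per library unless a scale is named, and a log2 ratio is that of the deposited group means, positive where the knockout is higher.

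Of the 29 genes, 13 were higher and 16 were lower in the knockout. Among all rows 50.5% were higher and 49.5% lower, and among the protein-coding rows 54.5% were higher and 45.5% lower. Every row had passed the authors' test at an adjusted p below 0.05 (100% of rows), so that all 29 passed says nothing about these genes. Their adjusted p values imply that the authors tested 21574 genes, of which the 3956 rows are 18.3%. In the GENCODE M21 annotation 173 protein-coding genes match the rule, and the 29 with a row make up 16.8% of them, beside 15% of all annotated protein-coding genes. By family, rows were held by 3 of 7 sirtuin genes, 3 of 10 Arid, 2 of 4 Aff, 2 of 5 Mllt, 2 of 8 Cbx, 2 of 8 Kmt, 2 of 10 Chd, 2 of 10 Setd, 2 of 11 Hdac, 2 of 13 Smarc and 2 of 22 Phf genes. The Tet, Ash, Prmt, Kat and Brd families had 1 each. No row was found for 18 Kdm genes or for the Dnmt, Ing, Baz, Ezh and Ncor families, of 2 to 5 genes each, and whether families differ was not tested. Over the 11 pathway lists used below, which also name genes outside the rule, 46 of 303 genes had a row (15.2%), 23 higher and 23 lower. A gene without a row did not pass the selection or was not among the tested genes.

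The median size of the log2 ratio was 0.55 in the 29 genes and 0.89 over the protein-coding rows. Their median wild-type level was 1390 normalized counts, against 560 over the protein-coding rows, and the part of this higher level in the smaller ratios was not tested. Only Prmt8 and Cbx6 changed at least 2-fold, 2 of 29 genes (6.9%) beside 44.4% of the protein-coding rows and 50.6% of all rows, and both were higher. A change of at least 1.5-fold was seen in 14 of the 29, beside 74.2% and 77.9%. An adjusted p under 0.01 in the authors' deposited table was held by 16, beside 62.3% and 61.5%. On the recovered reads edgeR gave 21 of the 29 a p no larger than the largest p in that table (0.00917), beside 68.9% and 68.8%. That count fell with any library left out. It was 14, 15 and 11 without knockout library a, b and c, and 13, 16 and 18 without wild-type library a, b and c. No share over all rows is given beside these counts, so the fall says nothing about these genes in particular. In all 29 genes every library of one group lay above every library of the other, as in 97.1% of the 3190 protein-coding rows with recovered reads. Since the rows were selected on these libraries, and 3 against 3 libraries allow no exact two-sided permutation p below 0.1, that is a description only. In bulk lung RNA, fewer cells of a type and less RNA per cell cannot be told apart.

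**Figure D1:**
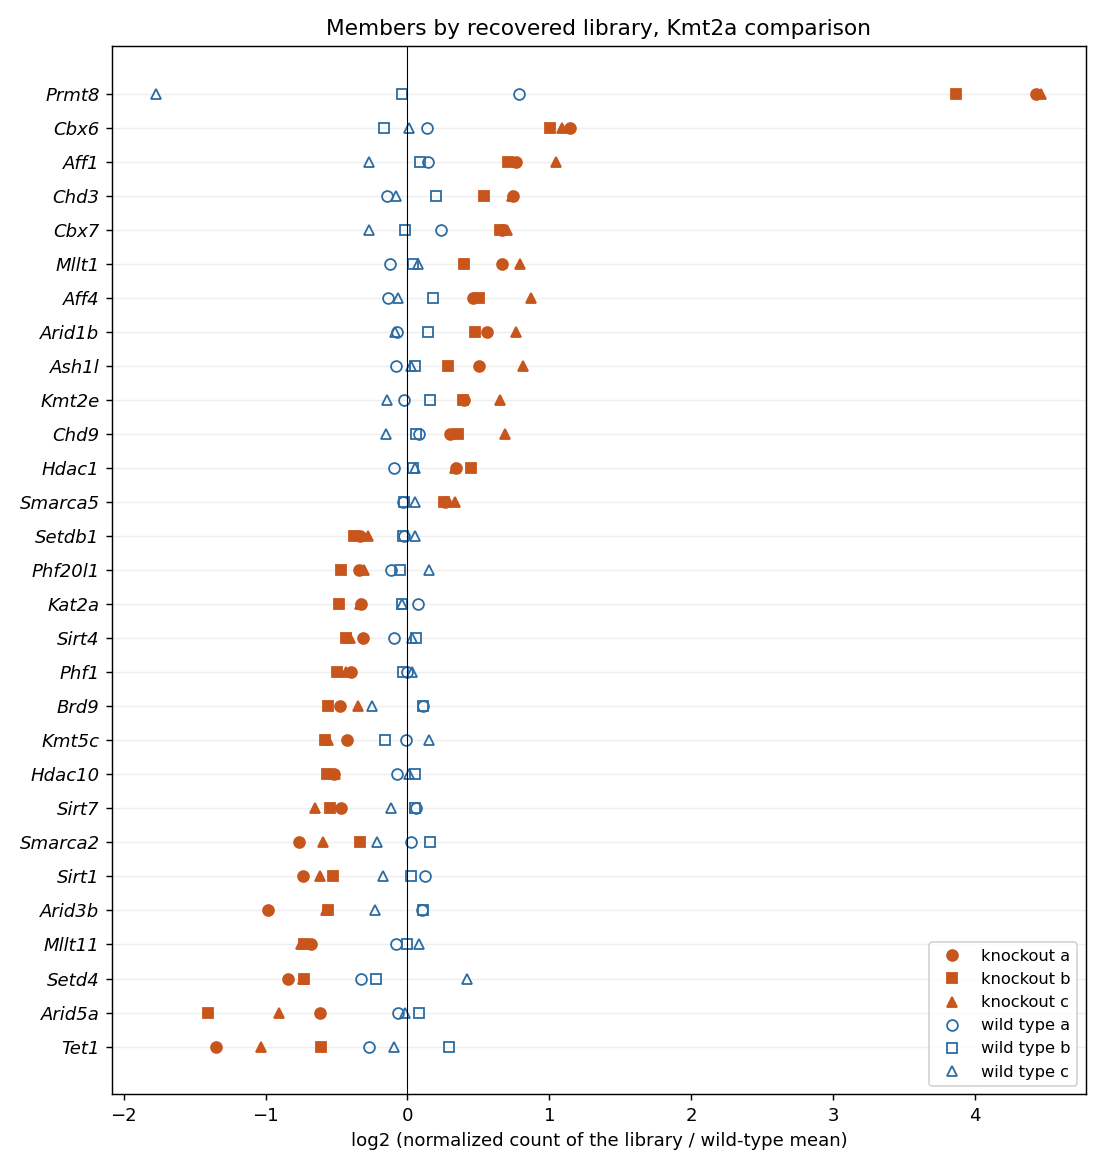
Normalized counts of the 29 genes in each recovered library, as log2 of the value over the wild-type mean of that gene (x axis), with 1 gene per line (filled orange, knockout; open blue, wild type; circle, square and triangle for libraries a, b and c). The groups are separate on every line, and Prmt8 stands far to the right with widely spread wild-type libraries.

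Of 21 genes in the list of MLL and COMPASS subunits 2 had a row, and both rose. Kmt2e, an MLL-family protein that binds methylated lysine 4 of histone H3 and has no known methyltransferase activity there, stood at 2472, 2456 and 2946 in the knockout libraries a, b and c and at 1844, 2090 and 1696 in the wild-type libraries. Its log2 ratio was 0.48, with an adjusted p of 0.018 in the authors' deposited table. All knockout libraries were above the wild type, with library c the highest. The Kmt2e gene shares 9.31% of its exonic bases with Srpk2 on the opposite strand, and the libraries keep no strand. Ncoa6, a coactivator found in the complexes of Kmt2c and Kmt2d, was outside the rule and stood at 1321, 1223 and 1488 against 1058, 973 and 1026, a log2 ratio of 0.40 (adjusted p 0.0286 in the authors' deposited table).

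The scaffold genes Aff1 and Aff4 of the super elongation complex rose, while its kinase gene Cdk9 and the cyclin gene Ccnt2 fell. This complex joins AFF scaffolds, ENL or AF9 and the kinase CDK9 with its cyclin T, and AFF1, AFF4 and ENL are fusion partners of MLL. Of the 18 genes in the list of this and the DOT1L complex, 6 had a row, 4 higher and 2 lower, and 2 of the 4 Aff genes had none. Aff1 stood at 3381, 3261 and 4123 in the knockout and at 2204, 2114 and 1654 in the wild type, a mean of 3588 ± 467 (SD, n = 3) against 1991 ± 295 (n = 3). That is a 1.8-fold level and a log2 ratio of 0.85 (adjusted p 0.000142 in the authors' deposited table), the third largest increase among the 29 genes. The lowest knockout library was well above the highest wild-type one.

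Aff4, the scaffold of the form of the complex that serves many induced genes, stood at 3244, 3330 and 4291 in the knockout and at 2135, 2667 and 2248 in the wild type (log2 ratio 0.62, adjusted p 0.00783 in the authors' deposited table). Library c was again the highest of the knockout, and without it the log2 ratio was 0.48. Mllt1, which encodes ENL, a reader of acetylated histones shared by the super elongation and DOT1L complexes, stood at 1162, 965 and 1269 against 674, 754 and 770, a log2 ratio of 0.63 (adjusted p 0.0026 in the same table of the authors). Its wild-type libraries were close together and its knockout libraries were spread more widely. Outside the rule, the elongation factor gene Ell2 was higher, with a log2 ratio of 0.40 (713, 677 and 718 against 562, 500 and 534). Cdk9, the kinase of the complex, was lower at 2209, 1926 and 1811 against 2959, 2617 and 3133, a log2 ratio of −0.55. Ccnt2, one of its cyclins, had a log2 ratio of −0.41 (2077, 2398 and 2221 against 3216, 3033 and 2636). For these 3 genes the adjusted p in the authors' deposited table was 0.0144, 0.00353 and 0.0306.

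Of the 34 further MLL fusion partners listed, 6 had a row. Both members among them fell. Mllt11, a small protein also called AF1q and known mainly from neurons and leukemia, stood at 202, 195 and 193 in the knockout and at 306, 324 and 342 in the wild type. The knockout mean of 197 ± 4.4 (SD, n = 3) was 39.3% below that of the wild type, 324 ± 17.7 (n = 3), with an adjusted p of 6.35e-05 in the authors' deposited table. The libraries of each group lay close together, although this gene is one of the less abundant of the 29. Tet1, an enzyme that oxidizes methylated cytosine and was found as a fusion partner of MLL, stood at 50.2, 83.9 and 62.5 against 106, 157 and 120, a log2 ratio of −0.96 (adjusted p 0.0142 in the authors' deposited table). Tet1 had the lowest level per length of the 29 genes, 8.47 normalized counts per kb in the wild type, and wide spread in both groups (coefficients of variation of 26.1% and 20.4%). The partners outside the rule were higher: Gas7 (log2 ratio 0.55), the actin crosslinker gene Actn4 (0.66), the forkhead factor gene Foxo3 (0.75) and Kif2c (1.20), a mitotic kinesin gene whose place in this list is uncertain. Foxo3 overlapped between groups, with 2275, 3297 and 3609 against 2289, 1815 and 1344 for wild-type libraries.

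Polycomb genes were led by Cbx6 and Cbx7, which lie near each other on chromosome 15. Both encode chromobox subunits of Polycomb repressive complex 1, which read methylated lysine 27 of histone H3. Cbx6 stood at 8960, 8117 and 8599 in the knockout and at 4436, 3609 and 4079 in the wild type. The means were 8559 ± 423 and 4041 ± 415 (SD, n = 3 each), a 2.12-fold level with an adjusted p of 5.14e-13 in the authors' deposited table. The lowest knockout library was above the highest wild-type library by a wide margin, and spread within groups was small. Cbx6 shares 563 bases, 5.31% of its exonic bases in GENCODE M21, with the protein-coding gene Npcd on the same strand, which had no row. Per length, Cbx6 went from the second to the first place among the 29 genes, at 1361 normalized counts per kb in the knockout. Cbx7 stood at 3572, 3533 and 3673 against 2659, 2230 and 1869, a log2 ratio of 0.67 (adjusted p 0.00168 in the authors' deposited table). Its knockout libraries were nearly equal, with a coefficient of variation of 2.01%, while the wild-type libraries varied by 17.6%.

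Phf1, a Polycomb-like protein that joins Polycomb repressive complex 2, went the other way. It stood at 2914, 2726 and 2852 in the knockout and at 3837, 3767 and 3932 in the wild type, which fell by 26.4% in the mean (adjusted p 0.000128 in the authors' deposited table), and it was the most abundant of the 29 genes per length in the wild type, at 1583 normalized counts per kb. The groups were tight and well apart. However, 1370 bases, 39.3% of its exonic bases in GENCODE M21, are shared with Cuta on the opposite strand. Reads of a shared part could not be told apart by strand. The deposited gene model, of 2429 bases, differs in length from that annotation, and how much of it is shared was not checked. Of the 32 Polycomb genes listed, 5 had a row, 3 higher and 2 lower. Outside the rule, the complex 1 gene Bmi1 had a log2 ratio of −0.32 and Rybp, a subunit of variant forms of that complex, one of 0.64.

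SWI/SNF genes moved in both directions. These complexes slide and evict nucleosomes, driven by either SMARCA2 or SMARCA4. Smarca2, the ATPase also called BRM, stood at 3388, 4548 and 3810 in the knockout and at 5853, 6421 and 4962 in the wild type, a log2 ratio of −0.55 (adjusted p 0.0215 in the authors' deposited table). Brd9, the bromodomain subunit of the noncanonical form, stood at 998, 942 and 1092 against 1501, 1500 and 1169 (log2 ratio −0.46, adjusted p 0.0383 in the authors' deposited table). In Smarca2 and Brd9 alike, wild-type library c lay close to the highest knockout library. Arid1b, a subunit of the canonical form, rose from 1247, 1457 and 1239 to 1942, 1831 and 2230, a 1.52-fold level (adjusted p 0.00127 in the authors' deposited table). Of 28 listed genes 4 had a row, 1 higher and 3 lower, the fourth being Bcl7a at a log2 ratio of −0.52.

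Among the CHD and ISWI remodelers the 3 members all rose. Chd3, an ATPase of the NuRD complex that couples remodeling to deacetylation, stood at 5844, 5084 and 5822 in the knockout and at 3162, 4010 and 3294 in the wild type, a 1.6-fold level (adjusted p 0.000363 in the authors' deposited table). Chd9 stood at 1316, 1373 and 1722 against 1130, 1118 and 963, with the longest gene model of the 29, 23148 bases, and an adjusted p of 0.0491 in the authors' deposited table, the closest to the threshold. Next to it came Phf20l1 at 0.0451, while genes just outside the threshold have no row. The groups of Chd9 were separate, yet without knockout library c its log2 ratio went from 0.46 to 0.33. Smarca5, the ATPase of ISWI complexes, changed least of the 29 genes: 1690, 1684 and 1773 against 1377, 1382 and 1462, a log2 ratio of 0.29 (adjusted p 0.0388 in the authors' deposited table). It has an annotated processed copy, Smarca5-ps, on chromosome 4, whose reads may be shared with it. Of 33 listed genes 5 had a row, with Gatad2a, another NuRD subunit, at a log2 ratio of 0.94 and Cecr2, a bromodomain partner of ISWI, at a 0.5-fold level (267, 353 and 357 against 649, 662 and 644).

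The deacetylase genes of the Hdac family went both ways. Hdac1, a class I enzyme of the NuRD, SIN3 and CoREST complexes, stood at 2133, 2293 and 2116 in the knockout and at 1575, 1725 and 1741 in the wild type, a level 29.8% higher (adjusted p 0.0102 in the authors' deposited table). Hdac10, a class II enzyme that acts on polyamines, stood at 566, 548 and 570 against 772, 842 and 819, and fell by 30.8% with an adjusted p of 0.000202 in that table of the authors. Both genes had close replicates, with coefficients of variation of at most 5.43%.

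The 3 sirtuin genes with a row, of 7 annotated, were all lower. Sirtuins are deacylases that depend on NAD. Sirt1, which acts in the nucleus on histones and transcription factors, stood at 692, 801 and 755 in the knockout and at 1261, 1177 and 1027 in the wild type, and fell by 35.1%. Sirt7, found in the nucleolus, stood at 1941, 1836 and 1704 against 2791, 2786 and 2472, and fell by 31.9%. Sirt4, a mitochondrial enzyme, stood at 349, 321 and 328 against 406, 452 and 444, and fell by 23.4%. In each of them the highest knockout library was below the lowest wild-type library, and the adjusted p in the authors' deposited table was 0.000648 for Sirt1, 0.000292 for Sirt7 and 0.0394 for Sirt4. Of the 36 listed deacetylase and corepressor genes 7 had a row, 2 higher and 5 lower, with the corepressor subunit genes Tbl1x at 0.51 and Sin3b at −0.31 as log2 ratios.

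Among acetyltransferase and reader genes, Kat2a and Phf20l1 were lower. Kat2a, the GCN5 acetyltransferase of the SAGA and ATAC complexes, stood at 685, 615 and 683 in the knockout and at 908, 838 and 839 in the wild type (log2 ratio −0.38, adjusted p 0.021 in the authors' deposited table). Phf20l1, which carries Tudor and PHD domains, stood at 2158, 1977 and 2213 against 2521, 2641 and 3046 (log2 ratio −0.37). These were 2 of 30 listed genes. No demethylase of the Kdm family had a row. Of the demethylase list of 23 genes, the 1 row was Jmjd6, a JmjC-domain hydroxylase outside the rule, which fell from 1638, 1865 and 1533 to 848, 803 and 805 (log2 ratio −1.04, adjusted p 1e-11 in the authors' deposited table). A noncoding row, the antisense gene Kdm6bos, matched the symbols but not the biotype and was left out. Its deposited means were 10.4 for the knockout against 29.2.

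The other methyltransferase genes held the largest change. Ash1l, a Trithorax-group enzyme that methylates lysine 36 of histone H3, stood at 2884, 2475 and 3585 in the knockout and at 1920, 2111 and 2071 in the wild type, a log2 ratio of 0.55 (adjusted p 0.0216 in the authors' deposited table) that was 0.40 without knockout library c. Another 3 enzymes were lower. Kmt5c, which trimethylates lysine 20 of histone H4, stood at 1282, 1152 and 1172 against 1711, 1549 and 1920 (log2 ratio −0.52). Setdb1, a methyltransferase of lysine 9 of histone H3 that silences repeats, stood at 1010, 979 and 1050 against 1250, 1245 and 1321, and fell by 20.3%. Setdb1 had one of the smallest changes, with groups that were tight and apart. Setd4 stood at 135, 146 and 145 against 193, 208 and 324, with wild-type library c far above the others. The log2 ratio of −0.77 became −0.50 once that library was left out. The adjusted p in the authors' deposited table was 0.00391 for Kmt5c, 0.0214 for Setdb1 and 0.0271 for Setd4. Of 33 listed genes 6 had a row, with Smyd3 outside the rule at a log2 ratio of 0.71.

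Prmt8, an arginine methyltransferase anchored at the plasma membrane and known chiefly from the brain, rose by far the most. It stood at 1168, 790 and 1200 in the knockout and at 93.7, 52.9 and 15.9 in the wild type, from 1374, 904 and 1286 reads and from 90, 48 and 13 reads. The means were 1053 ± 228 and 54.2 ± 38.9 (SD, n = 3 each), a 19.4-fold level and a log2 ratio of 4.28, with an adjusted p of 2.91e-14 in the authors' deposited table. Every knockout library was far above the highest wild-type library, but the wild-type libraries varied widely among themselves, and the log2 ratio was 4.94 when wild-type library a was left out. Per length, Prmt8 went from place 28 of the 29 genes in the wild type to place 6 in the knockout. It shares 8.55% of its exonic bases with the antisense gene Gm42738, which had 10, 5 and 8 reads in the knockout libraries and 0 reads in each wild-type library.

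The rows near Prmt8 were also higher. Within 500000 bases of the gene, which lies at chromosome 6 from 127689011 to 127769472 (GRCm38), the table held 5 other rows and all were higher. For Gm42738, Gm42811 and Gm23098, with 0 to 2 reads in each wild-type library, the selection could be passed only through the knockout, so their direction was fixed by it. Tspan11, a tetraspanin gene, stood at 3775, 2410 and 4106 in the knockout and at 892, 519 and 673 in the wild type, a log2 ratio of 2.30 with an adjusted p of 1.22e-12 in the authors' deposited table. Gm42741 had deposited means of 36.9 and 4.35, Gm42811 of 10.7 and 0.714, and Gm23098 of 12.2 and 0.735. Knockout library b was the lowest of its group in Prmt8 and Tspan11, as in 54.1% of the protein-coding rows that were higher. Of the 29 genes 16 had at least 5 neighbouring rows, and Prmt8 was the 1 gene among them whose neighbours all had its direction (6.25%), beside 2.68% of 1157 protein-coding rows. That count includes Gm42738, Gm42811 and Gm23098, whose direction was fixed, so nothing follows from it for Prmt8. Around Cbx6, 6 of 7 neighbouring rows were higher, Cbx7 (0.67), Apobec3 (1.38) and Pdgfb (0.87) among them as log2 ratios, and Cbx7 and Apobec3 share 100 exonic bases on opposite strands. Around Sirt7, 18 of 19 neighbouring rows were lower, like Sirt7 itself. Mafg, among those that were lower, shares 124 exonic bases with Sirt7 on the same strand. Over all 29 genes 108 of 168 neighbour pairs had the same direction (64.3%), beside 54.9% for protein-coding rows. These pairs share rows, Sirt7 gave 18 of the 108, and Gm42738, Gm42811 and Gm23098 are among them. Gm45640 and Gm45464 beside Chd9, with 0 to 3 reads in each wild-type library, also had a fixed direction. Nothing therefore follows from that share for the 29 genes. Other pairs among the 29 also lie near each other and moved alike: Sirt1 and Tet1 on chromosome 10, and Setdb1 and Mllt11 on chromosome 3.

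**Figure D2:**
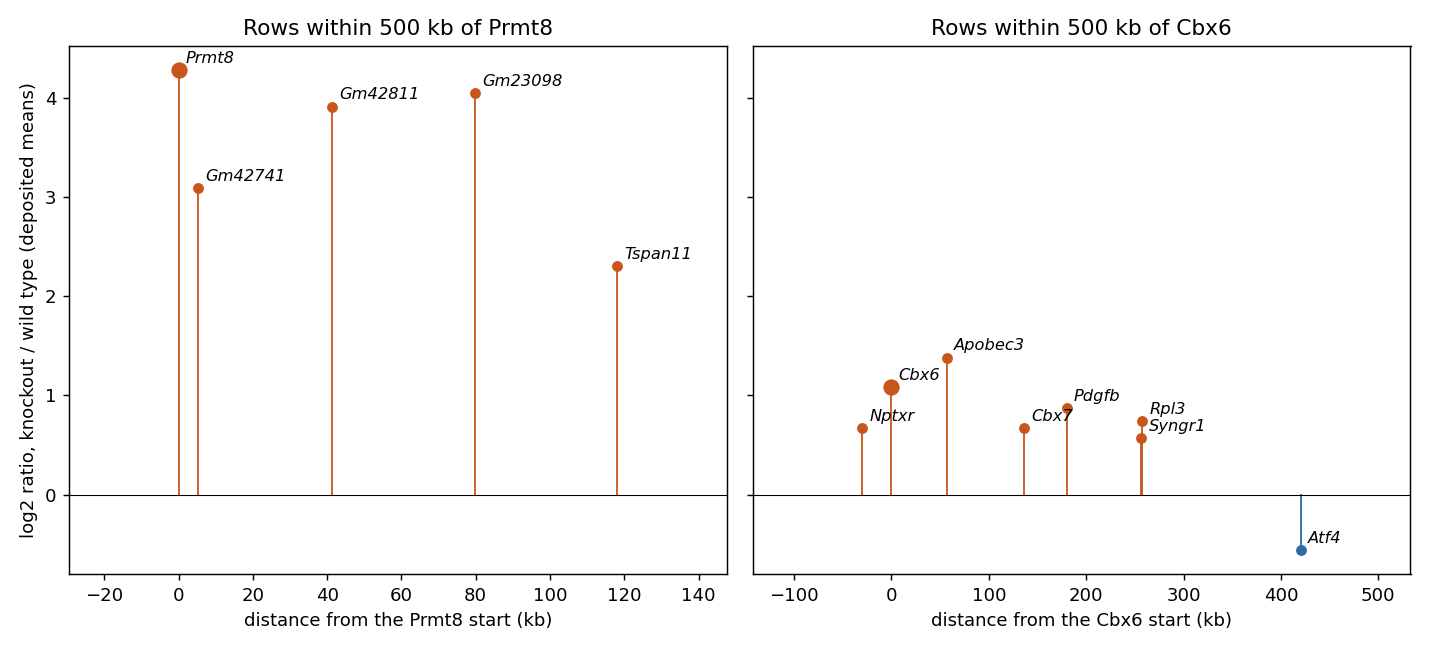
Log2 ratio (knockout over wild type, deposited means, y axis) of the rows within 500 kb of Prmt8 (left) and Cbx6 (right), by the distance of each start from that of the named gene in kb (x axis). Gm42738, listed at 0 in the wild type, has no ratio and is not drawn, and of the rows drawn Atf4 alone is lower (blue).

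Arid5a and Arid3b, which are no SWI/SNF subunits, fell. Arid5a, which binds DNA and, in mice, stabilizes the messenger RNA of interleukin 6, stood at 882, 512 and 725 in the knockout and at 1296, 1432 and 1337 in the wild type, and fell by 47.9% (adjusted p 0.000982 in the authors' deposited table). Arid3b stood at 294, 394 and 391 against 624, 626 and 495, and fell by 38.1% (adjusted p 0.00707 in the same deposited table of the authors). Arid5a varied by 26.3% in the knockout and by 5.13% in the wild type, and no libraries overlapped in either gene. Of the 19 genes of DNA methylation and heterochromatin, the 3 with a row were lower, Tet1 and, outside the rule, Morc3 (log2 ratio −0.56) and Trim28 (−0.38).

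Because MLL binds CG-rich DNA, the sequences upstream of the genes were read. RefSeq start sites on GRCm38.p6 were at hand for 23 of the 29 genes, and the 250 bases before each start (the start nearest the 5′ end in the table) were searched for the motif CG, which reads the same on both strands and was counted without overlap. For 4 of the genes (Aff1, Cbx7, Sirt1 and Tet1) the start used lies over 20000 bases from that end, and 19 of the 23 windows reach into an exon annotated in GENCODE M21, wholly so for Prmt8 and Cbx6. The 4 windows free of exons are shown: those of the fusion partner genes Aff1 and Aff4, which rose, and of Arid5a and Kat2a, which fell. They are written 5′ to 3′ on the strand of the gene, with each CG in capitals.
Aff1: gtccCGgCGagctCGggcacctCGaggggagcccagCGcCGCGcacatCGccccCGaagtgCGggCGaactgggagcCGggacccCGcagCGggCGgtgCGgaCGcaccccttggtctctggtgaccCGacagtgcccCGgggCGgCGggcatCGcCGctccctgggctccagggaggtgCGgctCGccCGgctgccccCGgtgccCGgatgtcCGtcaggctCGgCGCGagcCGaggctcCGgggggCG
Aff4: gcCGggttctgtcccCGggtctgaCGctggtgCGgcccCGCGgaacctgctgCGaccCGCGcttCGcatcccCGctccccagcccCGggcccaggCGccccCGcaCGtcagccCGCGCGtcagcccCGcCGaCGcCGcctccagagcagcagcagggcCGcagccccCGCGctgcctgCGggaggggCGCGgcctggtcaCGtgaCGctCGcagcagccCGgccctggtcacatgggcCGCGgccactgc
Arid5a: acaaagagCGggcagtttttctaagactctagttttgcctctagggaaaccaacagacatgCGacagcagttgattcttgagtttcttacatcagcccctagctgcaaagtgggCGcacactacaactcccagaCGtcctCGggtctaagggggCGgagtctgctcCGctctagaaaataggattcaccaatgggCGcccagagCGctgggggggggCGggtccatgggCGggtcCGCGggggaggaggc
Kat2a: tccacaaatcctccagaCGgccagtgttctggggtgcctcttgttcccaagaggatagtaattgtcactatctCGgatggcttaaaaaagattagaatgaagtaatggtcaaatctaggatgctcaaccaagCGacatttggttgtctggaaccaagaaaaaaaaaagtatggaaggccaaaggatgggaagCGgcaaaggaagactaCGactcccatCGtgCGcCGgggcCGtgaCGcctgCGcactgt

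Aff1 had 35 CG in its window (chr5:103753912-103754161, plus strand) and Aff4 had 34 (chr11:53350517-53350766, plus), against 13 in Arid5a (chr1:36307483-36307732, plus) and 11 in Kat2a (chr11:100712468-100712717, minus). Prmt8 held 37 and Cbx6 20. All 23 windows held at least 11 CG, with a median of 23. Of the windows of 27025 genes 91.7% held at least 1 CG, and 38.2% at least 10. Of protein-coding rows 64.1% held at least 10, with a median of 14. Windows of the 9 genes that were higher had a median of 34 and those of the 14 that were lower one of 19, beside 15 and 13 for the protein-coding rows that were higher and lower. The 2 groups overlapped, from 16 to 37 CG and from 11 to 39 CG, and Sirt1, which fell, held the most.

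**Figure D3:**
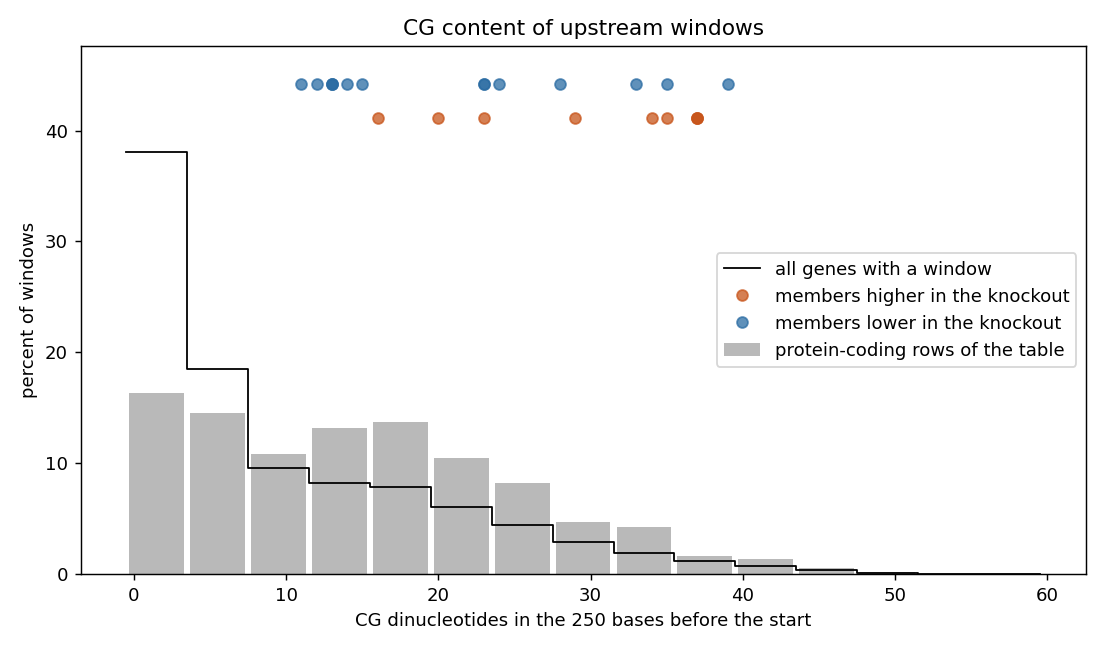
CG dinucleotides in the 250 bases before the start (x axis) against the percent of windows (y axis), for protein-coding rows of the table (grey bars) and all genes (black line). Dots above mark the single genes that were higher (orange, 16 to 37 CG) and lower (blue, 11 to 39 CG), at heights that carry no value.

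Gene length moved with direction over the table, and less steadily in these genes. The median gene model was 6670 bases in the 29 genes and 4025 over the protein-coding rows. Those of the 29 that were higher had a median of 8443 bases and those that were lower one of 5240. The matching medians of the protein-coding rows were 4440 and 3551 bases. Over the protein-coding rows, the share that was higher went from 43% in the shortest of 4 equal length classes to 65.2% in the longest. Of the 29 genes 16 lay in the longest class, 9 higher and 7 lower, and the 3 in the shortest class were all lower. Between them, the second class held 6, with 3 higher and 3 lower, and the third held 4, with 1 higher and 3 lower. The part of gene length in the directions was not tested.

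**Figure D4:**
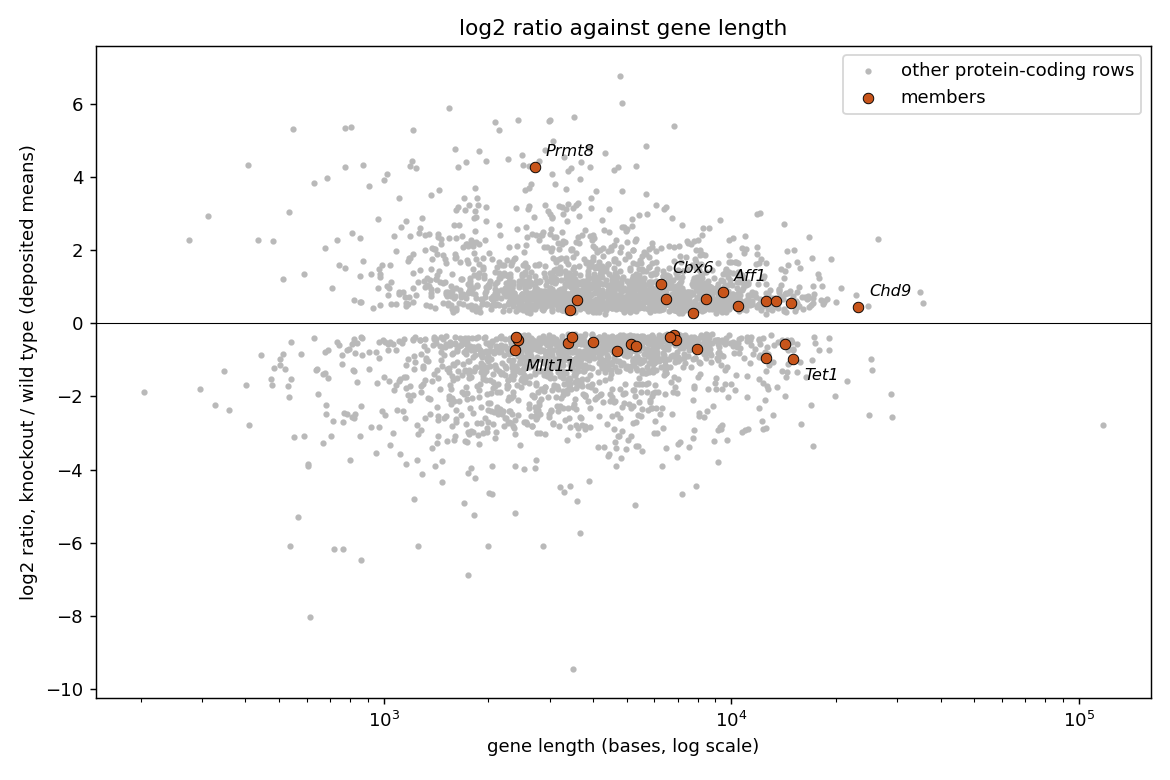
Log2 ratio (knockout over wild type, deposited means, y axis) against gene length in bases (x axis, log scale) for the protein-coding rows (grey) and the 29 genes (orange), without rows listed at 0 in a group. All but Prmt8 and Cbx6 lie within 1 log2 unit of 0, and the band around 0 is empty because the table holds selected rows only.

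Knockout library c stood apart in long genes. It was the highest of the knockout libraries in 10 of the 13 genes that were higher, beside 46.5% of the protein-coding rows that were higher, and in 7 of the 8 of these with at least 7500 bases. No share over the table is given for that last set, so that count says nothing about these genes in particular. Among protein-coding rows of either direction, library c was the highest in 57.9% of those of 10000 bases or more. In those under 2500 bases it was the highest in 25.6%. In the same length classes of the genes described here, of either direction, it was the highest in 5 of 8 (62.5%) and in 0 of 3. Whether these genes differ from other long rows was not tested. Without library c, the ratios of Aff4, Ash1l, Chd9 and Kmt2e were the lowest of those obtained by leaving out a library (0.48, 0.40, 0.33 and 0.39). They had to stay positive, since the groups lay apart.

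Other cells and processes differed between the same libraries. In the cardiac muscle list 13 of 14 genes had a row and all were lower, with the 11 of recovered reads summing to 3943 to 7856 per knockout library and 13889 to 69143 per wild-type library. Of 24 cell division genes 7 had a row, all higher, with sums of 3058 to 3906 against 2064 to 2185. Of 13 macrophage genes 8 had a row, all higher, with sums of 9151 to 13173 over the 7 recovered against 3094 to 5120. Of 10 erythroid genes 5 had a row, all lower, with sums over 2 recovered of 263 to 861 against 2866 to 10232. The alveolar epithelial list had 10 rows of 12, all higher. Its 4 recovered rows summed to 25538 to 27868 per knockout library, and to 15451, 10154 and 5934 in wild-type libraries a, b and c. Neutrophil genes had 2 rows of 10, Ltf higher and Mpo lower, and lymphocyte genes none of 10. Club and ciliated cell genes had 2 rows of 7, Scgb1a1 and Cyp2f2, both lower. Their deposited means summed to 652591 for the knockout and 2075943 for the wild type, the largest sums among these lists. Peritoneal macrophage genes had 1 row of 9, Cd209b, with deposited means of 8.9 for the knockout against 44.8. Among these rows no gene was listed at 0 in a group. The part of these differences in the chromatin genes was not tested.

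No gene of these families had a row in the Men1 knockout comparison. The authors' deposited table holds 772 genes there, chosen by a p under 0.05 with a change of 2-fold or more either way, and 13 of them (1.68%) passed the adjusted threshold of 0.05. A change as small as most of those described above would not pass that selection, whether present or not.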

How the data were processed

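Mouse lung RNA was sequenced in 14 libraries with an unstranded kit, per the labels' protocols. Per the submitters' processing notes, the tools were DESeq2 1.16.1, featureCounts 1.5.0-p3 and HISAT2 2.0.5 and the builds mm10 and GRCm38, with no roles given. For the Kmt2a comparison the authors deposited a signal, the mean normalized count per group (counts divided by a size factor), with a log2 fold change, a p-value and an adjusted p-value, for rows with an adjusted p below 0.05. For Men1 the deposited table holds raw counts, normalized counts, log2 fold changes and p-values of 772 selected genes; 2 further wild-type columns matched no sample and were not used. The Kmt2a table does not say which libraries its wild-type column averages; those labelled as the Kmt2a wild type were assumed.

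Each Kmt2a mean up to 10000 was resolved into the whole reads of 3 libraries, in 3853 of 3853 knockout and 3878 of 3878 wild-type means, which left 3822 rows resolved in both, with 4058294 to 4417692 reads per knockout library and 2733144 to 3269401 per wild-type library. These totals cover the resolved rows only, not whole libraries. Recovery at known size factors and the edgeR test with recovered size factors were run on simulated data. The finding of the size factors, the TMM variant and DESeq2 were not checked that way. The call for a gene is the authors' adjusted p. The reads were also tested with edgeR 4.0.16 (quasi-likelihood, offsets from the recovered size factors, or TMM) and DESeq2 1.42.0, adjusted over the rows by Benjamini-Hochberg. As all rows had been selected, such an adjusted p calls nearly every row, so p was also read at the largest p in the authors' deposited table (0.00917), a choice made after the data were seen. Other values were computed in Python 3.11.15. Each library carries its own number in the labels, which do not state that these numbers are animals; the libraries were treated as separate samples.

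The members and the 11 pathway and 9 other gene lists were chosen with earlier results of these data known. Every member may be named, with list genes outside the rule named where they have a row.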

Additional observations from a re-analysis of the deposited data

How the results depend on the processing

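Of the 29 genes 16 passed at a threshold of 0.01 for the authors' deposited adjusted p, 8 higher and 8 lower, beside 62.3% of protein-coding rows. DESeq2 on the recovered reads called all 29, and edgeR adjusted over the rows called 29, or 27 to 29 with a library left out (13 higher and 14 to 16 lower). Since every row had been selected on these reads, an adjusted p over the rows calls nearly all of them. These counts therefore say nothing about the 29 genes. Read at the largest p in the authors' table, a choice made after the data were seen, edgeR called 21 genes, 11 higher and 10 lower, beside 68.9% of protein-coding rows, and missed Brd9, Chd9, Phf20l1, Setd4, Sirt4, Smarca2, Smarca5 and Tet1. With TMM factors it called 20, 7 higher and 13 lower, as every log2 ratio moved by −0.06. With any library left out it called fewer, 11 to 18 genes, 6 to 9 higher and 5 to 10 lower. The fewest, 11, were called without knockout library c, and 13 without wild-type library a. No share over all rows is given beside these counts, so they too say nothing about these genes in particular. Of the rows 50.5% were higher, and 54.5% of protein-coding rows. None of the 261 single-gene log2 ratios reversed or moved beyond the spread between libraries under 9 other settings (pseudocounts, deposited log2 fold change, left-out libraries). For left-out libraries that outcome was fixed and shows no robustness. The groups of all 29 genes lay apart, and losing a library shifts a mean by less than that spread. The deposited log2 fold change is nearly the same ratio. Prmt8 ran from 3.84 to 4.94. The cause of these differences was not tested. No paired analysis was possible because the recovered libraries carry no replicate numbers. Alternatives for Men1 were not run, since no member has a row there. Depth limits the precision of genes with few reads, such as wild-type Prmt8 with 13 to 90 reads per library.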
